A study of Mus musculus with 8 samples.

Results

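The 10 genes described here, Fbxw14, Fbxw15, Fbxw16, Fbxw18, Fbxw19, Fbxw20, Fbxw21, Fbxw22, Fbxw24 and Fbxw28, belong to a run of related F-box genes on mouse chromosome 9. A member was any of these genes that an Affymetrix transcript cluster (the array's unit of probes for a transcript) named alone, under its current or an older symbol, in a table without values above 100. All 10 met this condition, each on 1 transcript cluster, among 30701 genes measured. Their level was read in 8 pools of 100 mouse embryos at the late 2-cell stage, in 4 groups of 2 pools. Zygotes from B6C3F1 x CD1 matings, taken from the oviducts of hormone-stimulated females, were the source of every pool. The first group was injected at the mid-pronuclear stage with Trim21 mRNA plus an antibody against COPS3, and the second with the anti-COPS3 antibody alone. The third was injected with Trim21 mRNA and no antibody, and the fourth was non-manipulated and never injected. All were cultured for 28 h by the protocol, while the age label gives 24 h in vitro. Cleavage was labelled normal in both groups without antibody and stunted, with many undivided zygotes, in both groups with it. No group received an antibody of another specificity. Each group had its own day within 1 week, and its 2 pools shared that day. Group and day cannot be told apart, and every p below measures only the spread between pools of the same day. The number of arrays limits the precision.

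F-box proteins are the part of SCF ubiquitin ligases that holds the substrate. They bind SKP1 through the F-box, SKP1 binds the scaffold CUL1, and CUL1 carries RBX1, which recruits the ubiquitin-conjugating enzyme. In Fbxw proteins the substrate side is made of WD40 repeats. The chromosome 9 genes are a tandem expansion known from rodents, with transcripts found mainly in oocytes. CUL1 is switched on by attachment of the ubiquitin-like protein NEDD8, and the COP9 signalosome, of which COPS3 is a subunit, takes NEDD8 off again. TRIM21, also a ubiquitin ligase, recognises antibodies inside cells, and antibody and bound target are then degraded together. The samples therefore ask, among other things, how transcripts of substrate subunits stand when the enzyme that acts on their ligase is targeted at the protein level.

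The start regions of the members are near-copies of each other. Array probes for near-copies can read more than their own gene, but these regions lie mostly before the annotated start, outside the transcript. Identity of the transcripts was not compared, and probe sequences were not used here. How far a member's probes read its neighbours was therefore not tested, and the 10 levels are not taken as independent measurements. RefSeq promoter sequences (assembly GRCm38.p6, 250 bases before to 50 bases after the annotated start) were matched for 9 of the 10 members. Fbxw22 had no entry. Over the 36 pairs of members the aligned sequences were 84.9% to 97.7% identical, with a median of 90.9%. The pair with the highest value was Fbxw14 and Fbxw28. Fbxw23, a gene that lies between members, shared only 57.5% to 66.2% with the others. The upstream stretch that holds the same E-box (CAGCTG) and the same run TTTAAA is given for each distinct version, 5′ to 3′ on the minus strand, with these motifs in capitals where present. It is 83 bases long, or 82 in Fbxw20, and the 9 members hold 7 versions of it, since Fbxw14, Fbxw28 and Fbxw19 are identical there.
Fbxw21, chr9:109162042-109162124: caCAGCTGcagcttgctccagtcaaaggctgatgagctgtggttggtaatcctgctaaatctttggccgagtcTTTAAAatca
Fbxw20, chr9:109234755-109234836: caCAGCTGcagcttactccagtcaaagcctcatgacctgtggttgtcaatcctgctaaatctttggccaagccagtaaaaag
Fbxw14, chr9:109287692-109287774 (also Fbxw28, chr9:109339675-109339757, and Fbxw19, chr9:109495899-109495981): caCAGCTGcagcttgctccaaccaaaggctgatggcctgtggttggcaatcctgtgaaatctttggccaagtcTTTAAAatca
Fbxw16, chr9:109449160-109449242: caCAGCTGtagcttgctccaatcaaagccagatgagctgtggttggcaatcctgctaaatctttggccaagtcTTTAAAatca
Fbxw15, chr9:109568283-109568365: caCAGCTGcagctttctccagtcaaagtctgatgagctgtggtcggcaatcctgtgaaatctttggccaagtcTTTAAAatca
Fbxw24, chr9:109626080-109626162: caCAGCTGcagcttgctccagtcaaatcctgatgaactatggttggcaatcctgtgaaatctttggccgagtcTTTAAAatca
Fbxw18, chr9:109702701-109702783: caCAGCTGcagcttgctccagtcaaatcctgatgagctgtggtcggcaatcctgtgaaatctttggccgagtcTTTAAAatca

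CAGCTG was present in 9 of 9 member promoters, against 16.1% of 27025 promoters in the table. TTTAAA was present in 8 of 9 (all but Fbxw20), against 13.2% of all promoters. Both were picked after the sequences had been read, both strands were searched, and CAGCTG is a case of the general E-box motif, CANNTG. The general motif stood in 9 of 9 members and 72.1% of all promoters. TATAAA was in 0 of 9 members (14.2% of all promoters), as were the homeodomain motifs TAATTG (8.15%) and TAATTA (5.31%). These counts describe letters in windows that are copies of each other.

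Trim21 itself stood at a log2 level of 10.40 and 10.30 in pools given Trim21 mRNA plus antibody and 6.76 and 6.37 with antibody alone, against 9.77 and 10.14 with Trim21 mRNA and 6.27 and 5.65 in non-manipulated pools. The injected transcript was thus high in the 4 pools whose labels name it. On the arrays, 1532 olfactory and vomeronasal receptor genes, taken as genes with no known role in embryos, had a 95th percentile of 5.28 to 6.20. The lowest value of any member on any array was 11.24 and the highest 15.06, far above that level. The receptor percentile was itself higher with antibody, at 5.685 to 6.20 against 5.28 to 5.36 in the pools without it. The median of the receptor genes was 4.34 to 4.94 with antibody and 4.16 to 4.36 without, so these ranges overlapped. What part such a shift has in the members' differences was not tested. The brightest signals shared a top value on 3 arrays. There 169 and 151 transcript clusters (the arrays of Trim21 mRNA plus antibody) and 136 (the first array of antibody alone) were tied. This ceiling lay at 18.88 or above, so no member reached it. Array medians were 5.15 and 5.29 with Trim21 mRNA plus antibody and 5.24 and 4.86 with antibody alone, against 4.87 and 4.90 with Trim21 mRNA and 4.75 and 4.77 in non-manipulated pools.

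All 10 members were higher in embryos that had received the antibody. For every member, each of the 4 pools with antibody lay above each of the 4 pools without it, a pattern that 16.7% of all genes showed. Among the 1241 genes with a mean log2 level in the members' own range (11.76 to 14.27), 8.94% showed it. The gap between the lowest pool with antibody and the highest pool without it was 0.06 for Fbxw22 and 0.79 for Fbxw16, the extremes of the set. Relative to the mean of the non-manipulated pools, the median member stood 0.83 and 0.95 higher in the pools given Trim21 mRNA plus antibody. With antibody alone it stood 0.66 and 1.04 higher, and with Trim21 mRNA it differed by 0.04 and -0.05. Differences here are in log2 units, a scale on which 1 unit is a 2-fold change. In these bulk pools, a different number of cells and a different amount of RNA per cell cannot be told apart, and the share of undivided embryos in each pool is not in the sources used here. Its part in the result was not tested.

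**Figure D1:**
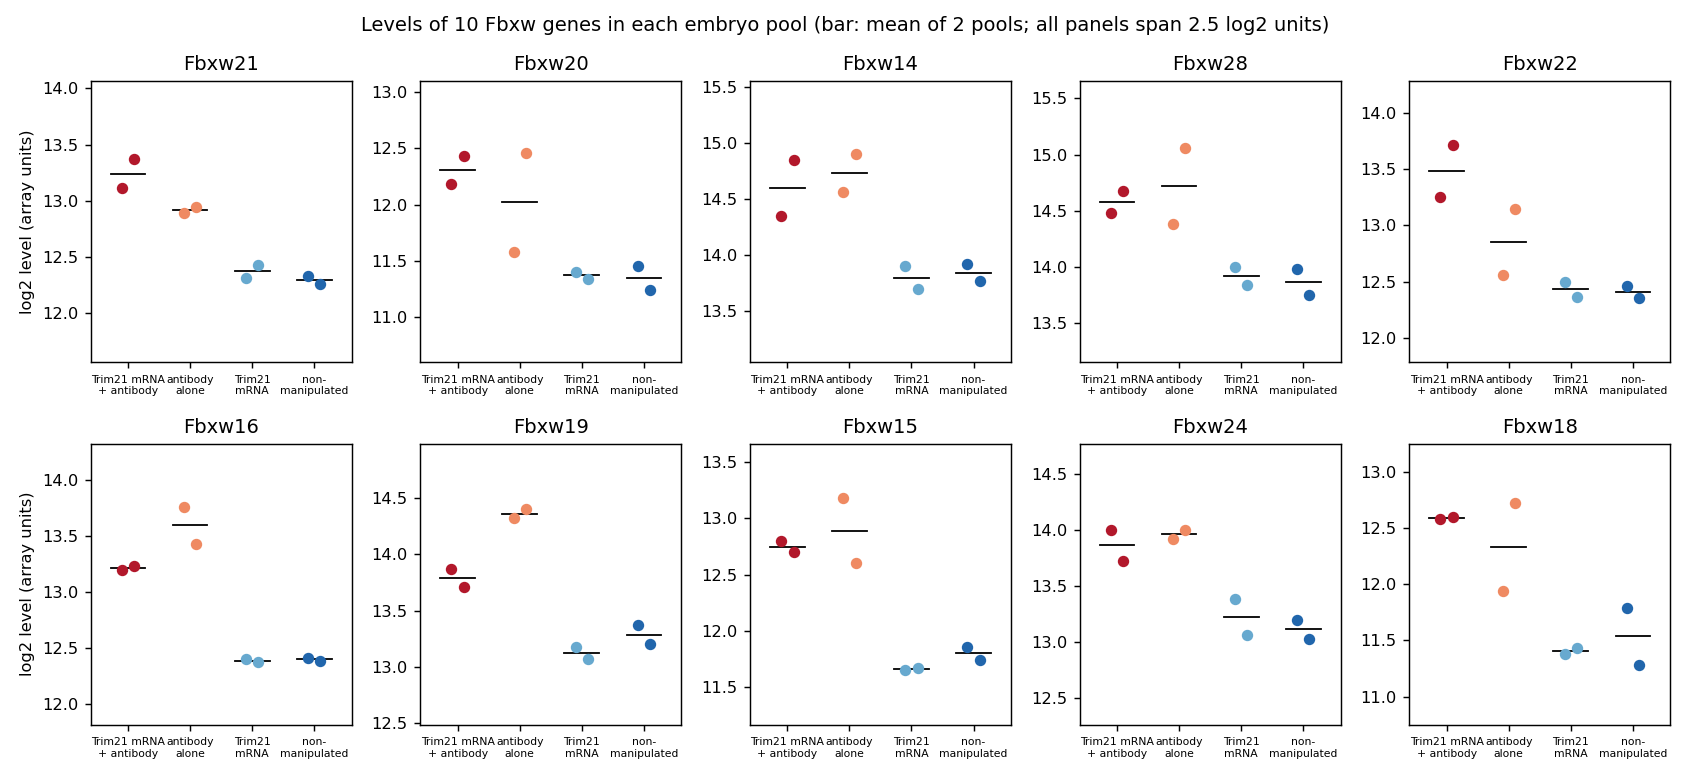
Log2 array level (vertical axis) of each of the 10 Fbxw genes in every pool, by group (horizontal axis), with a bar at the mean of 2 pools and panels in the genes' order on the chromosome. In every panel the 4 antibody pools (red and orange) lie above the 4 pools without antibody (light and dark blue), by as little as 0.06 for Fbxw22.

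Fbxw16 (TC0900003086.mm.1) separated the groups most clearly. This gene stood at 13.20 and 13.23 with Trim21 mRNA plus antibody and at 13.76 and 13.43 with antibody alone, against 12.40 and 12.38 with Trim21 mRNA and 12.41 and 12.39 in non-manipulated pools. The 4 pools without antibody lay within a few hundredths of each other, and the antibody-alone pools were the highest. Fbxw19 (TC0900003087.mm.1) stood at 13.87 and 13.71 with Trim21 mRNA plus antibody and 14.32 and 14.40 with antibody alone, against 13.18 and 13.07 with Trim21 mRNA and 13.37 and 13.20 in non-manipulated pools. Here both antibody-alone pools lay above both pools given the antibody with Trim21 mRNA. Fbxw15 (TC0900003089.mm.1), whose protein was reported in mouse lung epithelial cells to target the histone acetyltransferase Kat7 for degradation, stood at 12.80 and 12.70 with Trim21 mRNA plus antibody and 13.18 and 12.60 with antibody alone. Its levels were 11.65 and 11.67 with Trim21 mRNA and 11.86 and 11.74 in non-manipulated pools. The pools with antibody did not overlap those without it, while the antibody-alone pools spanned both pools of the combined injection. Fbxw24 (TC0900003091.mm.1), reported to act in meiotic prophase of female mice, stood at 14.00 and 13.72 with Trim21 mRNA plus antibody and 13.92 and 14.00 with antibody alone, against 13.38 and 13.06 with Trim21 mRNA and 13.20 and 13.03 in non-manipulated pools. Both antibody groups overlapped each other, and so did both groups without antibody.

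Fbxw14 and Fbxw28 are the pair with the most similar start regions. Fbxw14 (TC0900003080.mm.1) stood at 14.35 and 14.85 with Trim21 mRNA plus antibody and 14.56 and 14.90 with antibody alone, against 13.90 and 13.70 with Trim21 mRNA and 13.92 and 13.77 in non-manipulated pools. Fbxw28 (TC0900003082.mm.1) stood at 14.48 and 14.68 with Trim21 mRNA plus antibody and 14.38 and 15.06 with antibody alone, against 14.00 and 13.84 with Trim21 mRNA and 13.98 and 13.75 in non-manipulated pools. In both genes antibody-alone replicate 2 was the highest pool. Over the 8 pools their levels had a Pearson r of 0.96, a description of pools that share group means. Fbxw16 and Fbxw15 (r = 0.975) and Fbxw20 and Fbxw18 (r = 0.971) had higher values, with promoters 90.2% and 90.3% identical, below the median of the member pairs.

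In the remaining members, on the deposited scale, the combined injection had the higher mean of both antibody groups. Fbxw21 (TC0900003077.mm.1) stood at 13.11 and 13.37 with Trim21 mRNA plus antibody and 12.89 and 12.94 with antibody alone, against 12.31 and 12.43 with Trim21 mRNA and 12.33 and 12.26 in non-manipulated pools. Its groups with antibody did not overlap each other. Fbxw22 (TC0900003085.mm.1) stood at 13.25 and 13.72 with Trim21 mRNA plus antibody and 12.56 and 13.15 with antibody alone, against 12.50 and 12.36 with Trim21 mRNA and 12.46 and 12.35 in non-manipulated pools. Antibody-alone replicate 1 lay close to the pools without antibody. Fbxw20 (TC0900003079.mm.1) stood at 12.18 and 12.43 with Trim21 mRNA plus antibody and 11.58 and 12.46 with antibody alone, against 11.40 and 11.34 with Trim21 mRNA and 11.45 and 11.24 in non-manipulated pools. Fbxw18 (TC0900003093.mm.1) stood at 12.58 and 12.60 with Trim21 mRNA plus antibody and 11.94 and 12.72 with antibody alone, against 11.38 and 11.43 with Trim21 mRNA and 11.79 and 11.28 in non-manipulated pools. In both of these genes antibody-alone replicate 1 was low and replicate 2 was the highest pool of all.

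The comparison of Trim21 mRNA plus antibody with Trim21 mRNA asks what the antibody changed when the degrading ligase was supplied in both groups. The members stood higher by a median of 0.85, where the median of all genes was 0.21 and that of the 1241 genes of like level was -1.15. In limma's fit to all 8 pools, with Benjamini-Hochberg adjustment over 30701 genes, 8 of 10 members were called higher at an adjusted p under 0.05, where 8.73% of all genes were called higher and 23.2% in either direction. The difference in Fbxw21 was 0.87 ± 0.16 (SE of the fit, n = 2 pools a group, limma adjusted p = 0.00819), and that in Fbxw15 was 1.09 ± 0.21 (limma adjusted p = 0.01099). Fbxw16 differed by 0.83 ± 0.16 (limma adjusted p = 0.0117) and Fbxw19 by 0.67 ± 0.15 (limma adjusted p = 0.02205). Fbxw18 had the largest difference of the set, 1.19 ± 0.29 or 2.27-fold (limma adjusted p = 0.02611), and Fbxw22 differed by 1.06 ± 0.25 (limma adjusted p = 0.02405). Fbxw14 and Fbxw24 passed narrowly, with limma adjusted p-values of 0.04274 and 0.04788. Fbxw20 (0.94 ± 0.29, limma adjusted p = 0.05854) and Fbxw28 (0.66 ± 0.25, limma adjusted p = 0.09913) did not pass. The count of 8 rested on few pools, as did the count over all genes. With a pool left out, the members' median difference was 0.87 and 0.86 without Trim21 mRNA replicates 1 and 2. It was 1.02 and 0.795 without replicates 1 and 2 of the combined injection. The count was 3 after each array was centred on its median, where 1357 of 30701 genes were called higher. It was 10 after cyclic loess, where 3212 genes were, and 10 after quantile normalization, where 3493 were. Both moved the median member to 1.90.

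**Figure D2:**
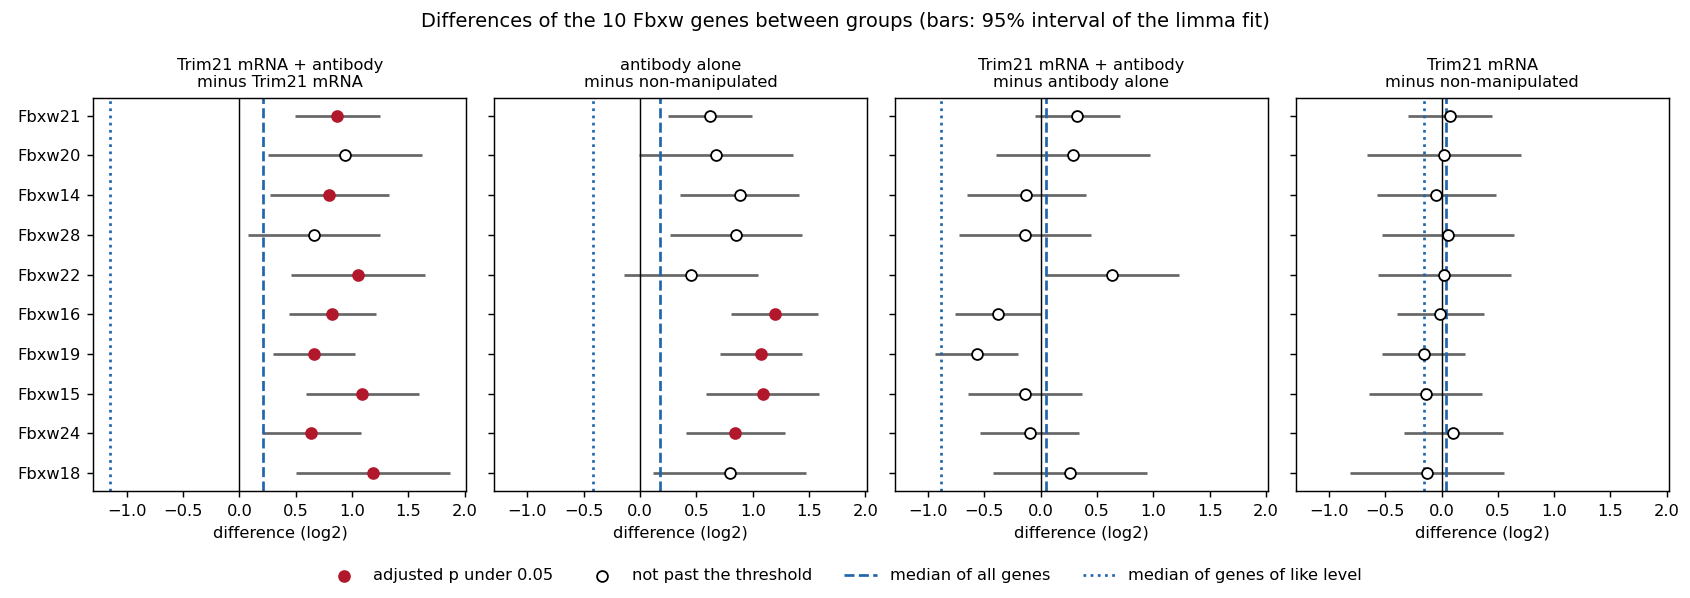
Difference of mean log2 level (horizontal axis) for each of the 10 genes (vertical axis, in chromosome order) in 4 comparisons, with the 95% interval of the limma fit. Filled points have an adjusted p under 0.05, the dashed line is the median of all genes and the dotted line that of 1241 genes of like level. The points lie near 0 for Trim21 mRNA minus non-manipulated and to the right of both lines in the first 2 panels, where groups with antibody are set against groups without.

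The comparison of antibody alone with non-manipulated embryos asks the same without injected Trim21 mRNA, and shares no pool with the one before. Again all 10 members had the higher mean with antibody, with a median of 0.85, where the median of all genes was 0.18 and that of the genes of like level -0.42. limma called 4 of them higher, where 2.76% of all genes were called higher and 10.0% in either direction. These were Fbxw16 (1.20 ± 0.16, or 2.29-fold, limma adjusted p = 0.008311), Fbxw19 (1.08 ± 0.15, limma adjusted p = 0.009778), Fbxw15 (1.09 ± 0.21, limma adjusted p = 0.02426) and Fbxw24 (0.85 ± 0.18, limma adjusted p = 0.03478). Fbxw14 (0.89 ± 0.22, limma adjusted p = 0.05359) and Fbxw21 (0.62 ± 0.16, limma adjusted p = 0.05509) lay just outside the threshold. Fbxw28, Fbxw18, Fbxw20 and Fbxw22 had limma adjusted p-values of 0.07848 to 0.2683, and Fbxw22 had the smallest difference, 0.45 ± 0.25. The count of 4 rested on few pools, as did the count over all genes. When the fit held only the 4 pools compared, limma called 0 members, where it called 0 of 30701 genes. With a pool left out, the members' median difference was 0.965 and 0.75 without non-manipulated replicates 1 and 2. It was 1.04 and 0.655 without antibody-alone replicates 1 and 2. The count was 8 after quantile normalization, where 1116 of 30701 genes were called higher, and 8 after cyclic loess, where 1305 were.

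Whether the antibody difference changed in size with Trim21 mRNA was tested as the interaction, the first of these differences minus the second. limma called 0 of 10 members, and 0 had an unadjusted p under 0.05, where 4.08% of all genes were called. On the deposited scale the estimates lay between -0.41 for Fbxw19 and 0.61 for Fbxw22, with a median of -0.04. The 95% interval there was -0.71 to 0.71 for Fbxw15 and -0.23 to 1.44 for Fbxw22. The scaling decided sign and size: all 10 estimates were above 0 after quantile normalization and after cyclic loess, with medians of 0.65 and 0.75, and median centring gave -0.12. Fbxw19 stood at 0.28 after quantile normalization and 0.43 after cyclic loess, and Fbxw15 at 0.63 and 0.69, with 0 members called under any of these. No direction or bound on the interaction is therefore given.

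No member differed past the threshold between Trim21 mRNA and non-manipulated embryos. The differences lay between -0.16 for Fbxw19 and 0.11 for Fbxw24, with a median of 0.01. In the fit to all pools, limma called 0 of 10, and 0 had an unadjusted p under 0.05, where 0.00326% of all genes were called. That fit takes its spread from every group, including antibody alone, whose pools differed by a median of 0.42 over all genes. The same median was 0.12 with Trim21 mRNA and 0.1 in non-manipulated pools. When the fit held only the groups compared, limma called 2519 of 30701 genes in either direction and still 0 members. The 95% intervals of the fit to all pools were -0.40 to 0.38 for Fbxw16 and -0.81 to 0.55 for Fbxw18. They bound a change in Fbxw16 more closely than one in Fbxw18, but their width includes spread in pools outside this comparison.

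Against non-manipulated embryos, the combined injection gave the members a median difference of 0.88, where that of all genes was 0.24. limma called 9 of 10 higher, where 15.1% of all genes were called higher and 31.7% in either direction. These differences ran from 0.51 ± 0.15 for Fbxw19 (limma adjusted p = 0.04573) to 1.08 ± 0.25 for Fbxw22 (limma adjusted p = 0.01863). Fbxw28 was the exception (0.72 ± 0.25, limma adjusted p = 0.06485). This comparison shares pools with each of those above. The count of 9 rested on few pools, as did the count over all genes. The members' median was 0.95 and 0.825 without replicates 1 and 2 of the combined injection. Without replicates 1 and 2 of the non-manipulated pools it was 0.905 and 0.80. The count was 3 after median centring, where 2086 of 30701 genes were called higher. It was 5 with the replicate number as a block, where 3290 genes were.

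Set against antibody alone, the combined injection gave the members no common direction. On the deposited scale 4 were higher and 6 lower, with a median of -0.12, and limma called 0 of 10, where 14.8% of all genes were called. An unadjusted p under 0.05 was reached by 2 members, Fbxw19 (-0.57 ± 0.15, limma adjusted p = 0.05235) and Fbxw22 (0.63 ± 0.25, limma adjusted p = 0.1582). The scaling decided the sign here: after quantile normalization all 10 members were higher in the combined injection, with a median of 0.71. Of them 5 were called, where 4980 of 30701 genes were called in either direction. Cyclic loess gave a median of 0.79 and 4 called, where 4444 genes were. Median centring gave -0.24 and 1 called, where 4566 genes were. The member called there was Fbxw19 at -0.69 (limma adjusted p = 0.03867). No direction is therefore given for this pair of groups. Without replicate 2 of antibody alone the members' median was 0.12, and without replicate 1 it was -0.15.

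Genes of high signal stood lower in the combined injection on the deposited scale, and much less so on others. For Trim21 mRNA plus antibody minus Trim21 mRNA, the 1241 genes of like level had a median of -1.15 as deposited and -1.35 after median centring, but -0.12 after cyclic loess and -0.16 after quantile normalization. The members were above both medians on each of these scales. Of all genes called in that comparison 37.6% were higher as deposited, against 20.7% after median centring, 46.8% after cyclic loess and 48.5% after quantile normalization. For antibody alone minus non-manipulated the higher share was 27.4% as deposited, 18.4% after centring, 44.2% after cyclic loess and 45.0% after quantile normalization.

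**Figure D3:**
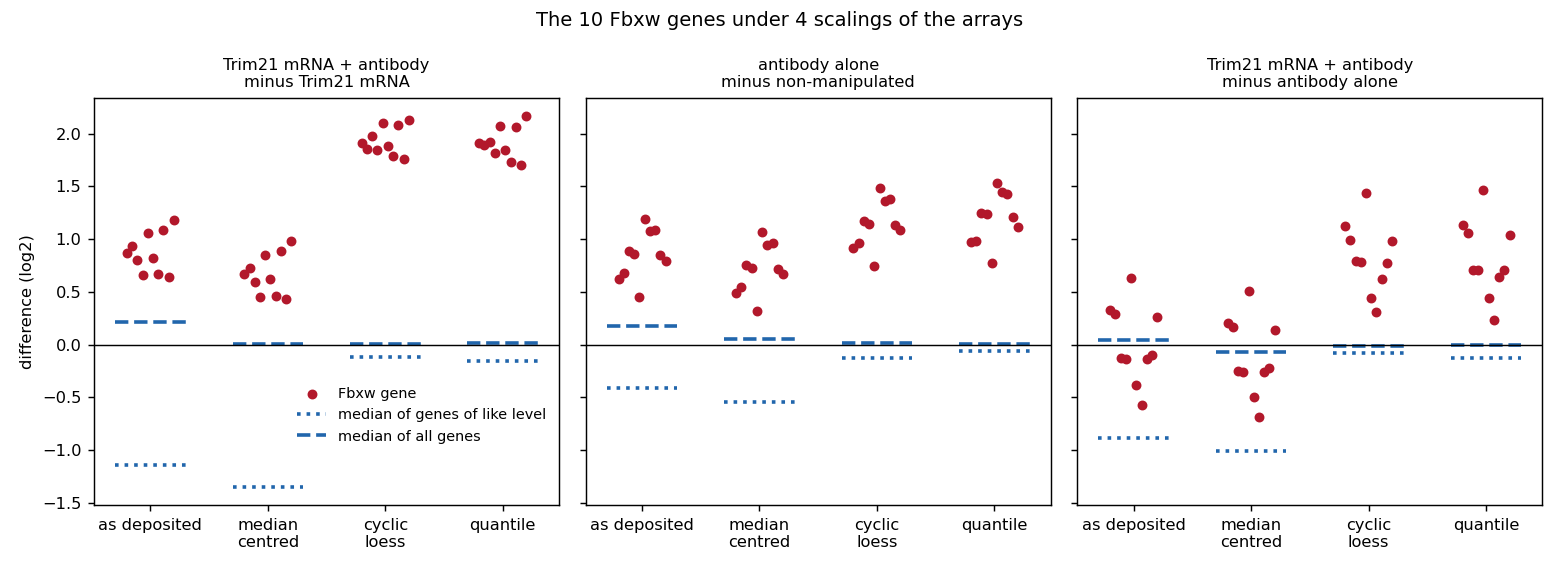
Difference of mean log2 level (vertical axis) for the 10 Fbxw genes (points) in 3 comparisons, under 4 scalings of the arrays (horizontal axis), with the median of all genes (dashed) and of genes of like level (dotted). The members lie above both medians under every scaling in the first 2 panels, and change from both sides of 0 to above 0 in the third after cyclic loess or quantile normalization.

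RefSeq (GRCm38.p6) places 5 further Fbxw genes in the run that starts at Fbxw21 and ends at Fbxw27. They are Fbxw13, Fbxw23, Fbxw25, Fbxw26 and Fbxw27, of which Fbxw23 and Fbxw25 were added here after their values had been seen. limma called 4 of the 5 higher with Trim21 mRNA plus antibody than with Trim21 mRNA, and 3 of 5 higher with antibody alone than in non-manipulated pools. Fbxw27 stood at 12.25 and 12.53 with Trim21 mRNA plus antibody and 12.54 and 12.71 with antibody alone, against 11.39 and 11.48 with Trim21 mRNA and 11.51 and 11.29 in non-manipulated pools. Its differences were 0.96 ± 0.17 (limma adjusted p = 0.008398) with Trim21 mRNA supplied and 1.23 ± 0.17 (limma adjusted p = 0.009583) without. Fbxw25 differed by 1.14 ± 0.22 and 1.31 ± 0.22 in the same 2 comparisons (limma adjusted p = 0.01089 and 0.01576). Fbxw13 did not pass in either (0.69 ± 0.26 and 0.76 ± 0.26, limma adjusted p = 0.1044 and 0.1221). After cyclic loess Fbxw13 was called higher in both (1.31 and 1.04, limma adjusted p = 0.004328 and 0.0244), and likewise after quantile normalization (limma adjusted p = 0.003439 and 0.02895), while Fbxw23 lost its call in the first comparison after median centring (limma adjusted p = 0.07115).

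Fbxw26 departed from the rest of the run. It stood at 13.32 and 13.59 with Trim21 mRNA plus antibody and 11.50 and 12.57 with antibody alone, against 11.59 and 11.86 with Trim21 mRNA and 11.79 and 11.68 in non-manipulated pools. Antibody alone overlapped the groups without antibody, and the combined injection lay above all other pools. The combined injection differed from antibody alone by 1.42 ± 0.34 (limma adjusted p = 0.03347, or 0.0633 after median centring) and from Trim21 mRNA by 1.73 ± 0.34 (limma adjusted p = 0.01123), while antibody alone differed from non-manipulated by 0.30 ± 0.34 (limma adjusted p = 0.5494). The interaction, 1.43 ± 0.48, was not called (limma adjusted p = 0.2001), so the difference between these effects did not pass the threshold.

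The pools of antibody alone differed from each other by different amounts along the run. Replicate 1 minus replicate 2 was -0.05 in Fbxw21, -0.77 in Fbxw13, -0.88 in Fbxw20, -0.34 in Fbxw14, -0.68 in Fbxw28 and -0.59 in Fbxw22. The next genes in order were Fbxw16 at 0.33, Fbxw19 at -0.08, Fbxw23 at 0.58, Fbxw15 at 0.58, Fbxw24 at -0.08 and Fbxw25 at 0.60, and the last were Fbxw18 at -0.78, Fbxw26 at -1.07 and Fbxw27 at -0.17. Signs were thus mixed along the run, and no test of position was made. The median size of this difference over the members was 0.23 with Trim21 mRNA plus antibody and 0.46 with antibody alone, against 0.12 with Trim21 mRNA and 0.16 in non-manipulated pools. Over all genes it was 0.23 with Trim21 mRNA plus antibody and 0.42 with antibody alone, against 0.12 with Trim21 mRNA and 0.10 in non-manipulated pools. Over the 1241 genes of like level it was 0.38 with Trim21 mRNA plus antibody and 0.38 with antibody alone, against 0.15 with Trim21 mRNA and 0.09 in non-manipulated pools. Replicate 1 was the higher pool in 3 of 10 members with Trim21 mRNA plus antibody and 2 with antibody alone, against 7 with Trim21 mRNA and 10 in non-manipulated pools.

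**Figure D4:**
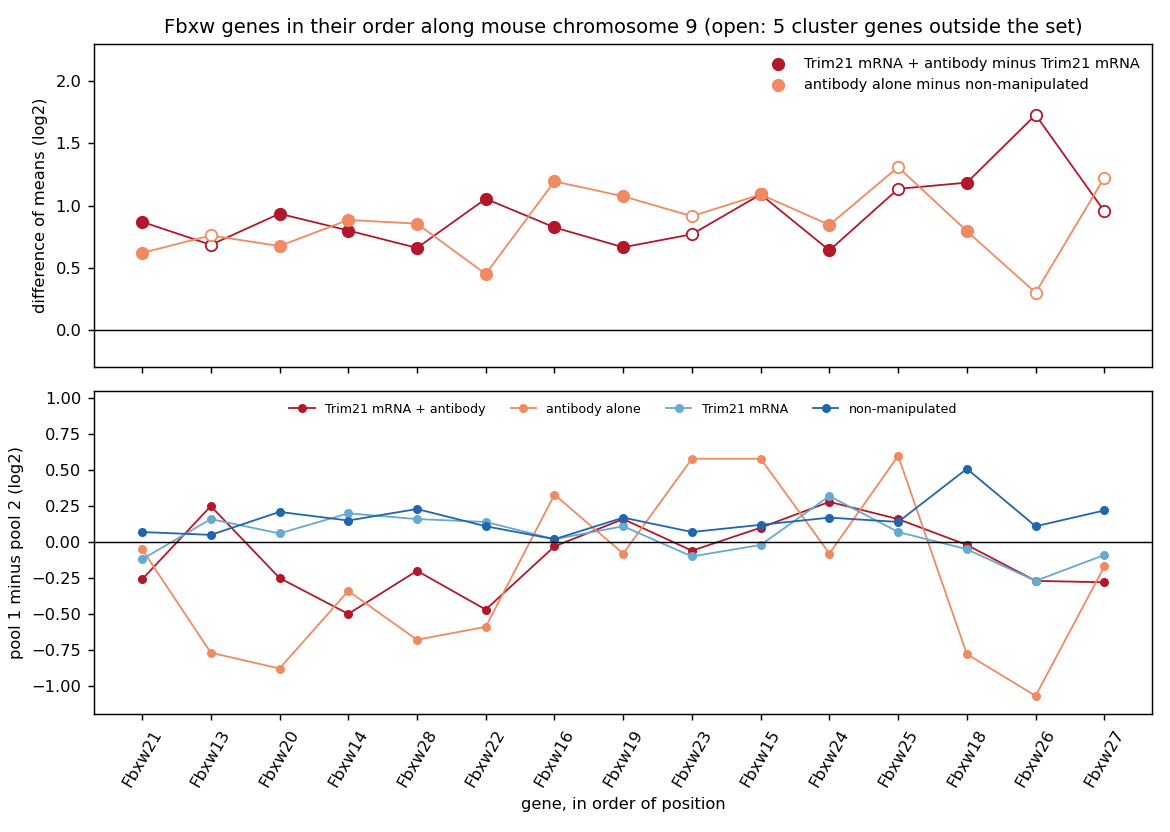
The 15 Fbxw genes in their order on chromosome 9 (horizontal axis; open points are the 5 genes outside the set of 10). The upper panel gives the difference of means (log2) for both comparisons with and without antibody, where every point lies above 0 and the curves part at Fbxw26; the lower panel gives replicate 1 minus replicate 2 (log2) in each group, where antibody alone ranges from -1.07 at Fbxw26 to 0.60 at Fbxw25.

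Fbxw genes elsewhere in the genome did not share a direction. Of 10 measured, limma called 1 higher and 4 lower with Trim21 mRNA plus antibody than with Trim21 mRNA, with a median of 0.05. Fbxw5 was higher by 0.77 ± 0.16 (limma adjusted p = 0.01516). Fbxw2 (-1.42 ± 0.23, limma adjusted p = 0.005248), Fbxw11 (-0.91 ± 0.22, limma adjusted p = 0.02623) and Btrc (-0.76 ± 0.21, limma adjusted p = 0.04056) were lower, and Btrc and Fbxw11 encode the paralogous beta-TrCP subunits that bind phosphorylated beta-catenin. Fbxw9 was the remaining one, at -1.0 ± 0.29 (limma adjusted p = 0.04798). With antibody alone, against non-manipulated embryos, limma called Fbxw4 (1.39 ± 0.19, adjusted p = 0.008019) and Fbxw5 (0.88 ± 0.16, adjusted p = 0.02059) higher and Btrc (-1.24 ± 0.21, adjusted p = 0.0158) lower. All of these kept their sign under median centring, cyclic loess and quantile normalization, but the split in the first comparison became 2 higher and 1 lower under cyclic loess and under quantile normalization, and 0 higher and 4 lower under median centring.

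Of the SCF core, the NEDD8 pathway and their partner enzymes, 14 of 16 listed genes were measured on a transcript cluster of their own. With Trim21 mRNA plus antibody, against Trim21 mRNA, limma called 3 higher and 4 lower, with a median of 0.15. Nedd8 stood at 10.50 and 10.02 with Trim21 mRNA plus antibody and 12.71 and 13.32 with antibody alone, against 13.35 and 13.15 with Trim21 mRNA and 13.79 and 13.89 in non-manipulated pools. Both pools of the combined injection lay below the other 6 pools, and the gene differed from Trim21 mRNA by -2.99 ± 0.26 (limma adjusted p = 0.0003227). Cand1, which exchanges F-box modules on CUL1, differed by -2.35 ± 0.27 (limma adjusted p = 0.001077), and its relative Cand2 by -1.50 ± 0.36 (limma adjusted p = 0.02707). Senp8, the protease that processes NEDD8, was higher by 2.36 ± 0.62 (limma adjusted p = 0.03588). Antibody alone against non-manipulated gave 2 higher, Nae1 (0.90 ± 0.18, limma adjusted p = 0.02778) and Uba3 (1.07 ± 0.24, limma adjusted p = 0.03722), which together form the NEDD8-activating enzyme. Ube2r2, a ubiquitin-conjugating enzyme of SCF ligases, was the only gene of the list called lower there (-1.21 ± 0.23, limma adjusted p = 0.02273). The adaptor Skp1 and the scaffold Cul1 were called in neither of these comparisons. Against antibody alone, the combined injection had Skp1 (-1.255 ± 0.26, limma adjusted p = 0.01918) and Cul1 (-1.41 ± 0.31, limma adjusted p = 0.02528) called lower. Neither was called there after cyclic loess or quantile normalization. Nedd8, Cand1 and Nae1 were called lower there too, and no gene of the list higher. The interaction was called in Nedd8 (-2.165 ± 0.36, limma adjusted p = 0.02528). Cul1 stood at 14.22 and 13.52 with Trim21 mRNA plus antibody and 14.96 and 15.60 with antibody alone, against 13.86 and 13.47 with Trim21 mRNA and 14.64 and 14.72 in non-manipulated pools. The scaling mattered for this list: with Trim21 mRNA plus antibody, against Trim21 mRNA, cyclic loess and quantile normalization each gave 7 higher and 3 lower, with Cul1 called higher under both, and median centring gave 0 higher and 4 lower. Nedd8 and Cand1 were called lower under each of the 3.

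Other oocyte transcripts and transcripts of the 2-cell stage were read beside the members. Of 13 oocyte markers, limma called 4 higher and 1 lower with Trim21 mRNA plus antibody than with Trim21 mRNA, with a median of 0.64. Those with the smallest p were Ooep (2.17 ± 0.20, limma adjusted p = 0.0003997) and Nobox (2.12 ± 0.21, limma adjusted p = 0.0006189), an oocyte factor of the subcortical complex and an oocyte transcription factor. The growth factor Bmp15 (1.69 ± 0.29, limma adjusted p = 0.006735) and the egg-coat gene Zp2 (0.93 ± 0.19, limma adjusted p = 0.01439) were higher too, and Zp3 was lower (-1.59 ± 0.40, limma adjusted p = 0.03132). Against non-manipulated pools, the combined injection had 2 called higher, Ooep (2.025, limma adjusted p = 0.0004857) and Nobox (2.3, limma adjusted p = 0.0004026), and 1 lower. Bmp15 and Zp2 did not pass there (0.235 and 0.46, limma adjusted p = 0.5388 and 0.1049). Trim21 mRNA minus non-manipulated was -1.455 in Bmp15 and -0.47 in Zp2, with neither called (limma adjusted p = 0.4758 and 0.7765). In the comparison with Trim21 mRNA, 10 of the 13 were called higher and 0 lower after cyclic loess or quantile normalization. Median centring gave 4 higher and 2 lower, with a median of 0.43. With antibody alone, against non-manipulated, 4 of 13 were called higher and 0 lower, with a median of 0.75. These were Gdf9 (0.84 ± 0.14, limma adjusted p = 0.01483), Bmp15 (1.54 ± 0.29, limma adjusted p = 0.02306), Oosp1 (1.18 ± 0.22, limma adjusted p = 0.02321) and Zp2 (0.94 ± 0.19, limma adjusted p = 0.02882). Median centring gave 3 higher there, and cyclic loess and quantile normalization gave 7 each. The log2 of the summed oocyte marker level was 18.7 and 18.1 with Trim21 mRNA plus antibody and 19.6 and 19.4 with antibody alone, against 17.8 and 17.6 with Trim21 mRNA and 18.2 and 18.2 in non-manipulated pools. Figla lay between 3.86 and 4.85 on every array, inside the range of the receptor genes.

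Of 9 measured transient 2-cell transcripts, 7 were called higher with Trim21 mRNA plus antibody than with Trim21 mRNA, with a median of 1.74, and 2 with antibody alone than in non-manipulated pools, with a median of 0.78. The smallest p in the first comparison were those of Tcstv3 (1.82), Zscan4d (1.73), Zscan4c (2.13) and Zfp352 (1.74). In the second, Zfp352 (1.59) and Zscan4d (1.12) were called. Median centring gave 7 and 1 higher, and cyclic loess and quantile normalization each gave 8 and 2. The log2 of the summed 2-cell transcript level was 15.7 and 16.0 with Trim21 mRNA plus antibody and 14.6 and 15.0 with antibody alone, against 13.9 and 14.2 with Trim21 mRNA and 14.3 and 14.2 in non-manipulated pools. Markers of sperm, oviduct, blood and cumulus cells were read too, and limma called 0 of 6, 0 of 4, 0 of 4 and 1 of 9 higher in the combined injection against Trim21 mRNA. The cumulus gene called was Has2 (0.56 ± 0.16, limma adjusted p = 0.0444), and of the oviduct markers Epcam was called lower (-2.34 ± 0.19, limma adjusted p = 0.0002795). Their summed levels on the log2 scale were at most 7.94, 10.9, 7.21 and 10.7 in any pool. The cumulus value of 10.7 was that of non-manipulated replicate 2 alone, against 8.56 in replicate 1 and 8.55 to 9.16 in the injected pools. Oocyte and 2-cell transcripts were called in the comparisons that called members and, as deposited, also where no member was called. With Trim21 mRNA plus antibody against antibody alone, Nobox, Ooep, Tcstv3, Usp17la, Usp17lc, Zscan4c and Zscan4d were called higher. Bmp15, Gdf9, Oosp1 and Zar1 were called lower there, calls that were lost after cyclic loess. The interaction was called in Nobox, Ooep and Tcstv3. The part of these transcripts in the members' result was not tested.

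For a ranking by likeness, the members were left out, as were predicted, clone, RIKEN, microRNA, small nucleolar RNA and pseudogene-type symbols. Of the 8803 remaining genes with a mean log2 level of 6 or more, 5 had profiles over the 8 pools most like the mean of the members. They were the immunoglobulin heavy-chain gene Ighg1 (Pearson r = 0.988), Olfr376 (0.987), Zfp352 (0.984), Adgrb3 (0.982) and Fbxw27 (0.980), with no p given since the pools share group means. Olfr376 is one of the receptor genes read above as background. It stood at 5.33 to 5.72 in the pools without antibody and 6.36 to 7.03 in those with it. Zfp352 is a transcript of the transient 2-cell list, and Fbxw27 lies at the end of the run. Fbxw13 ranked 122, Fbxw25 ranked 124, Fbxw23 ranked 249 and Fbxw26 ranked 958 among the same genes. Within the set the pair least alike was Fbxw22 and Fbxw19, with r = 0.509, and the pair most alike was Fbxw16 and Fbxw15, with r = 0.975.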

How the data were processed

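RNA of 8 pools of 100 embryos was labelled with a GeneChip WT Pico kit, per the labels' protocols, and read on Affymetrix arrays. The authors' deposited values are log2 levels per transcript cluster. They were made with Affymetrix Expression Console, per the submitters' processing notes; its version, the summarisation and the build are not stated there. In the column of non-manipulated replicate 1, deposited as log2 too, 1 value above 100 was not a log2 level, and its transcript cluster was dropped. Of 65956 transcript clusters, 31257 named 1 gene by the array annotation (1789 symbols updated to current ones), 1492 named several and 33206 none; the last 2 kinds were not tested. For 441 genes on several transcript clusters the one with the highest mean was kept, which left 30701 genes. No further scaling or filter was applied.

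Groups were compared in limma 3.58.1 under R 4.3.3 by two-sided tests on 4 group means (lmFit, then eBayes, 4 residual and 6.83 total degrees of freedom), with Benjamini-Hochberg adjustment over all genes of a comparison and a threshold of 0.05. The median standard error was 0.22, or 0.31 for the interaction. The fit had no replicate block, because same-numbered pools did not deviate together (r of -0.191 to 0.143). The members, lists and rules were chosen with earlier results of these data known. All members are named. Of each list, called genes with the smallest p are named, up to 4 a comparison or all that were called. Genes of like level are those whose mean over 8 pools lay in the members' range. Promoters were compared by global alignment. The fit was tested on simulated data. Alternatives were quantile normalization, median centring, cyclic loess, a minimum mean level of 5, the mean of a gene's transcript clusters, a trended robust prior, only the groups compared, the replicate block and each pool left out in turn. Protein sequences were not used here.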

Additional observations from a re-analysis of the deposited data

How the results depend on the processing

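The members were higher in 160 of 160 values each, over 16 alternatives, for Trim21 mRNA plus antibody against Trim21 mRNA, for antibody alone against non-manipulated, and for Trim21 mRNA plus antibody against non-manipulated. Their calls were less steady. For Trim21 mRNA plus antibody against Trim21 mRNA, 3 members were called after median centring, and 0 to 10 with a pool left out. For antibody alone against non-manipulated, quantile normalization gave 8, cyclic loess 8 and only the groups compared 0, with 0 to 9 when a pool was left out. For Trim21 mRNA plus antibody against non-manipulated, median centring gave 3 and the replicate block 5, with 0 to 10 when a pool was left out. For Trim21 mRNA plus antibody against antibody alone, quantile normalization gave 5, cyclic loess 4, median centring 1 and the minimum mean level 1, with 0 to 4 when a pool was left out. In that comparison Fbxw14, Fbxw15, Fbxw16, Fbxw19, Fbxw24 and Fbxw28 were lower as deposited and higher after quantile normalization and after cyclic loess. Only Fbxw24 was called after this change of sign. It stood at 0.70 after quantile normalization (limma adjusted p = 0.02356) and 0.77 after cyclic loess (limma adjusted p = 0.01797), against -0.10 as deposited. Trim21 mRNA against non-manipulated and the interaction gave 0 calls under every alternative run, but the interaction's median moved to 0.65 after quantile normalization and 0.75 after cyclic loess, against -0.04 as deposited. The cause of these changes was not tested; a pool left out leaves its group with 1 pool, which is assumed to vary like the others. With the replicate block 6 members were called for Trim21 mRNA plus antibody against Trim21 mRNA, where 1921 of 30701 genes were called higher. It gave 4 for antibody alone against non-manipulated (595 genes higher). For Trim21 mRNA plus antibody against antibody alone it gave 0 (3815 genes in either direction). The replicate numbers share no origin in the labels beyond the group's day. The ceiling on 3 arrays limits what high levels can show.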

Other observations

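Genes beside the run were read as well, chosen by position after their values had been seen: the 5 nearest protein-coding genes with a value on each side. Beyond Fbxw21 these were Plxnb1, Ccdc51, Shisa5, Pfkfb4 and Ucn2, and beyond Fbxw27 Spink8, Nme6, Camp, Cdc25a and Map4. With Trim21 mRNA plus antibody, against Trim21 mRNA, Shisa5 differed by 0.99 (limma adjusted p = 0.009061) and Nme6 by -1.80 (limma adjusted p = 0.04215), and the other 8 did not pass. Shisa5 was called under median centring, cyclic loess and quantile normalization too, but Nme6 was not after cyclic loess or quantile normalization (limma adjusted p = 0.09076 and 0.106). Ccdc51, at -0.49 as deposited (limma adjusted p = 0.0697), was called lower after median centring, cyclic loess and quantile normalization (limma adjusted p = 0.0144, 0.03632 and 0.02154). Map4, at 0.33 as deposited, was called higher after cyclic loess (1.03, limma adjusted p = 0.001928) and quantile normalization (1.16, limma adjusted p = 0.001248). With antibody alone, against non-manipulated, Cdc25a, a phosphatase that drives cell division, stood at 7.04 and 8.71 against 10.34 and 10.05, a difference of -2.32 (limma adjusted p = 0.02925). It was called under each of these scalings, and the other 9 did not pass as deposited, though Ccdc51 was called lower after median centring (-0.59, limma adjusted p = 0.0475) and Plxnb1 higher after cyclic loess (0.86, limma adjusted p = 0.04045). Inside the run, 3 predicted small nuclear RNA genes (Gm22821, Gm25484 and Gm24641) held identical values on every array. They stood at 9.87 and 10.00 with Trim21 mRNA plus antibody and 10.18 and 8.53 with antibody alone, against 9.71 and 10.33 with Trim21 mRNA and 9.38 and 9.45 in non-manipulated pools, and were called in none of the comparisons.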
